A study of Mus musculus with 16 samples.

Results

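The 30-40 nt RNA of mature mouse sperm, cut from a gel, was compared between males on a high-fat diet (HFD, diet D12492) and males on a normal diet (ND, Diet 1415). The members were the distinct sequences of either gel-cut library that also had at least 1 read in either whole sperm library, where whole sperm RNA was sequenced without a gel cut. These kept sequences numbered 24402 of the 283838 distinct sequences of both gel-cut libraries, with 16300 present in ND, 15717 in HFD and 7615 in both. They were thus chosen by their read counts in whole sperm, and not by the diet ratio in the gel cut.

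The series has 16 samples, of which the 2 gel-cut sperm libraries are compared here, with the 2 whole sperm libraries beside them. All males were C57BL/6J, bought at 5 weeks of age and assigned to a diet at random; how long they were fed and how many males went into a library are not given in the sources used here. Sperm came from the cauda epididymis, were passed through a 40 µm strainer and were kept for 40 min in a lysis buffer against somatic cells. From 1 to 2 µg of total RNA, the 30-40 nt band was cut from a 15% gel with 7 M urea. Each diet has 1 gel-cut library, so no value below has a replicate and none was tested: every difference is between 2 libraries, and diet, animals, gel cut and library preparation cannot be told apart. Intervals are exact 95% binomial intervals and cover counting error only, since PCR copies were not marked with molecular identifiers.

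Sperm carry small RNAs that reach the egg at fertilisation. Many of them are 5′ pieces of transfer RNAs (tRNAs), made when a mature tRNA is cut in or near its anticodon loop, which leaves a fragment that runs from the first base of the tRNA to the cut. Pieces of ribosomal RNA (rRNA) of similar size are found as well. In the study, 30-40 nt sperm RNA was injected into zygotes at 2 ng per µl; no label says that the sequenced RNA was the injected preparation.

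A family here is the set of sequences that share their first 15 bases, since most families held the same 5′ end with different 3′ ends. Family 1 is the most abundant family over both diets, and larger numbers mean lower abundance. The sequences below are the most abundant members of the families on which the results turn, printed with the 15 family bases in capitals.

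Family 1, 33 nt: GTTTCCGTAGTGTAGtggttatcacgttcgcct
Family 2, 30 nt: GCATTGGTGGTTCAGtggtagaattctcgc
Family 2, 32 nt: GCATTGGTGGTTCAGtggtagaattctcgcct
Family 3, 36 nt: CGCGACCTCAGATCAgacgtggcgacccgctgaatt
Family 3, 41 nt: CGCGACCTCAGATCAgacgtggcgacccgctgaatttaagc
Family 18, 38 nt: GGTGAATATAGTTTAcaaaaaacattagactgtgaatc
Family 27, 29 nt: GACTCTTAGCGGTGGatcactcggctcgt
Family 27, 26 nt: GACTCTTAGCGGTGGatcactcggct
Family 32, 30 nt: CGACTCTTAGCGGTGgatcactcggctcgt
Family 32, 27 nt: CGACTCTTAGCGGTGgatcactcggct

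Family 32 carries the sequence of Family 27 with 1 more base at its 5′ end. The reference held a valine tRNA gene whose first 33 bases equal the Family 1 read. Its first 36 bases are printed here with the anticodon in capitals to show where these reads stop.

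n-TVcac9 (tRNA-Val, GRCm38.p6, chr13:23446142-23446214, minus strand): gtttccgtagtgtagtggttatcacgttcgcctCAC

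Of 430 tRNA genes listed by RefSeq, only 6 had at least 60 bases in the sequence tables used here, and Family 1 was the only family printed above that could be matched to one. From general knowledge of these RNAs, and not from a match made here, Family 2 begins like tRNA-Gly, Family 3 like the 5′ start of 28S rRNA, and Families 27 and 32 like the 5′ start of 5.8S rRNA.

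The gel-cut libraries held 10368455 reads in ND and 10605324 in HFD. Kept sequences took 7068514 of the ND reads, or 68.2% (68.1 to 68.2), and 5573391 of the HFD reads, or 52.6% (52.5 to 52.6). The HFD library thus had a share of kept reads 15.6 percentage points smaller. In what follows, RPM is the number of reads scaled to a total of 1000000 kept reads in a gel-cut library, or of 1000000 reads of any kind in a whole sperm library. On all reads instead of kept reads, every ratio of HFD over ND below is multiplied by 0.771, a shift that moves the median log2 ratio of sequences from -0.31 to -0.76 when the same floor is applied to RPM of all reads.

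At the edge of the rule, 6276 sequences had exactly 1 read in whole sperm. They took a mean of 41.8 gel-cut reads in ND and 39.1 in HFD. The 259436 sequences just outside it, with 0 whole sperm reads, had a mean of 12.7 reads in ND and 19.4 in HFD.

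Both libraries were dominated by few sequences. The 10 most abundant took 57.4% of kept reads in ND and 58.5% in HFD, and the 100 most abundant took 80.4% and 81.2%. The top sequence, the 33 nt member of Family 1, alone took 33.5% in ND and 22.1% in HFD. The most common first base followed these families: G began 68.9% of ND and 55.8% of HFD kept reads, while C, the first base of Family 3, began 9.71% and 26.3%. Few kept reads ended in CCA, the tail of mature tRNAs, at 0.248% in ND and 0.200% in HFD.

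Reads of 28-34 nt, the size of many 5′ tRNA pieces, were 81.2% of kept reads in ND and 66.2% in HFD, 15.0 points fewer. Reads of 35-44 nt were 13.86% and 24.96%, 11.1 points more in HFD. The shift came at few lengths: 33 nt reads went from 38.8% in ND to 26.7% in HFD, and 36 nt reads from 4.24% to 13.4%. Shorter reads were also a larger part of the HFD library, with 24-27 nt at 3.80% and 6.01%, 21-23 nt at 0.818% and 2.02%, and 18-20 nt at 0.302% and 0.805%. Reads inside the stated cut of 30-40 nt were 88.7% of kept reads in ND and 83.3% in HFD. Whole sperm RNA had a different length profile, with a microRNA peak at 22 nt.

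**Figure D1:**
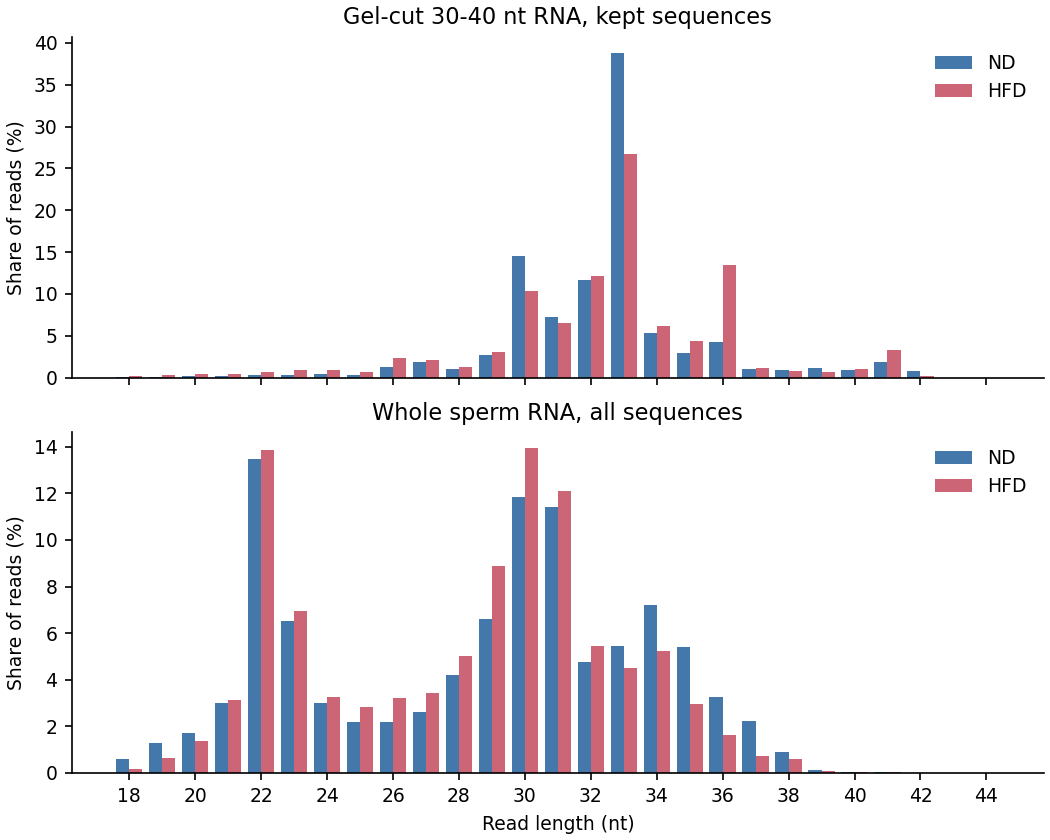
Share of reads (%) at each read length from 18 to 44 nt in ND (blue) and HFD (red), for kept reads of the gel-cut libraries (top) and all reads of the whole sperm libraries (bottom), 1 library per bar. In the gel cut the 33 nt bar falls from 38.8% in ND to 26.7% in HFD while the 36 nt bar goes from 4.24% to 13.4%.

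Of the kept sequences, 563 reached 100 RPM in at least 1 gel-cut library. Between diets, 271 of them (48.1%) differed 2 times or more, 140 higher in HFD (24.9%) and 131 lower (23.3%), and their median log2 ratio was -0.31. The direction split depended on the scaling, which could also change how many sequences passed the floor. On RPM of all reads 377 passed, 71 of them higher and 145 lower. With the median ratio as the scaling factor, 156 of 563 were higher and 81 lower. With Family 1 left out of the totals 782 passed, 167 of them higher and 300 lower. The background without the rule was larger, since 74.1% of all gel-cut sequences past the floor differed 2 times or more, against 36.5% of whole sperm sequences past the same floor.

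The sequences higher in HFD were shorter, with a median length of 27 nt, against 32 nt for those lower in HFD and 32 nt for those under 2 times apart. Their median GC content was 57.7%, against 48.5% for the lower sequences. The 140 higher sequences took 4.39% of kept reads in ND and 23.5% in HFD, and 16 of them had no read in ND. The 131 lower sequences took 5.63% and 1.91%. The 292 sequences under 2 times apart held most reads, at 78.3% in ND and 64.4% in HFD.

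Among sequences past the floor, length and direction went together. Of the 118 sequences of 18-27 nt past the floor, 76 were at least 2 times higher in HFD and 11 at least 2 times lower, with a median log2 ratio of 2.73. They belonged to 90 families, no family having more than 4 of them, and the median was 2 times or more higher in 53 of these families and lower in 11. Passing 100 RPM in 1 library was enough, so sequences high in only 1 diet entered these counts and this median. All kept reads of 18-27 nt together were 4.92% in ND and 8.84% in HFD, a ratio of 1.80. Among 339 sequences of 28-34 nt, 48 were higher and 87 lower, with a median of -0.50; among 106 of 35-44 nt, 16 were higher and 33 lower, with a median of -0.39. So the larger read share of 35-44 nt in HFD stood beside a median sequence of that size that was lower in HFD. Family 3, described below, alone took 7.11% of kept reads in ND and 22.0% in HFD.

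**Figure D2:**
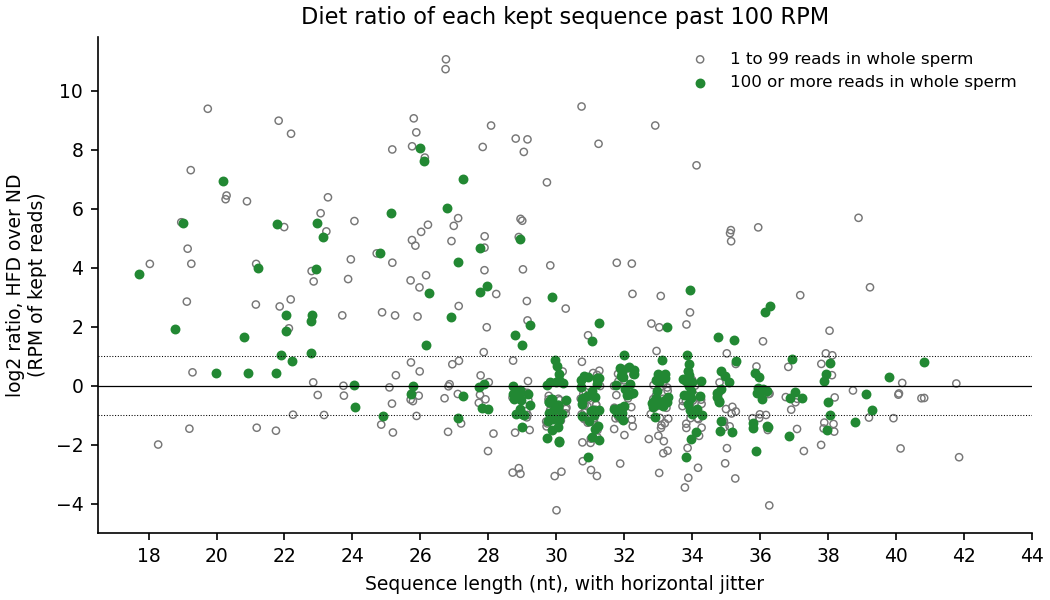
The log2 ratio of HFD over ND for each of the 563 kept sequences past 100 RPM, against its length in nt, with filled points for 100 or more reads in whole sperm and open points for 1 to 99; dotted lines mark 2 times. Points under 28 nt lie mostly above 0 for filled and open points alike. Points longer than 28 nt gather around and below 0, while those at 28 nt lie on both sides, many of them far above 0.

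Most short sequences past the floor were higher in HFD at either level of whole sperm support. Of the 37 short sequences with at least 100 whole sperm reads, 26 were higher and 2 lower. Of the 81 with fewer, 50 were higher and 9 lower. The read shares of all kept short sequences, past the floor or not, had smaller ratios, 2.69 and 1.63 at these levels. Over all lengths, a smaller share of sequences past the floor differed 2 times or more at higher support. It was 61.2% with 1 whole sperm read, 40.5% with at least 100 but under 1000 reads, and 26.4% with 1000 or more reads. Sequences high in only 1 diet could pass the floor here too, so this trend cannot be read as an effect of support. With 1 whole sperm read, 85 of 6276 sequences passed. The best supported class, 489 kept sequences of which 106 passed the floor, held 67.2% of kept reads in ND and 65.9% in HFD, and its median log2 ratio was -0.03.

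Diet ratios in the gel cut and in whole sperm had little in common. Of the 563 sequences past the floor, 174 had 10 RPM or more in each whole sperm library. For these, Pearson's r between the log2 ratios was 0.02 and Spearman's rho 0.18, over sequences that share libraries and families. The sign was the same for 102 of them (58.6%). In the gel cut 29 of the 174 were 2 times or more higher and 23 lower, whereas in whole sperm 33 were higher and 3 lower.

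At the level of families, 63 passed 1000 RPM in at least 1 gel-cut library, and 27 (42.9%) differed 2 times or more, 19 higher in HFD (30.2%) and 8 lower (12.7%). This split also depended on the scaling, and so could the number of families past the floor. On RPM of all reads 14 of 49 were higher and 13 lower, and with median ratio scaling 23 of 63 and 5. With Family 1 left out of the totals 19 of 94 were higher and 28 lower. Of the families at 100 RPM or more in each whole sperm library, 16 were described by name. These took 67.4% of kept reads in ND and 68.6% in HFD. Of them 3 were 2 times or more higher in HFD, none lower, and 13 were under 2 times apart, with ratios from 0.635 to 5.85. With median ratio scaling, Families 48 (2.08), 50 (2.21) and 52 (2.10) also passed 2 times. On all reads, Family 36 was 2 times lower (0.490) and Family 32 was no longer 2 times higher. The other 47 families took 16.8% and 17.8% of kept reads, 16 of them higher and 8 lower, with ratios from 0.0598 to 243.

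**Figure D3:**
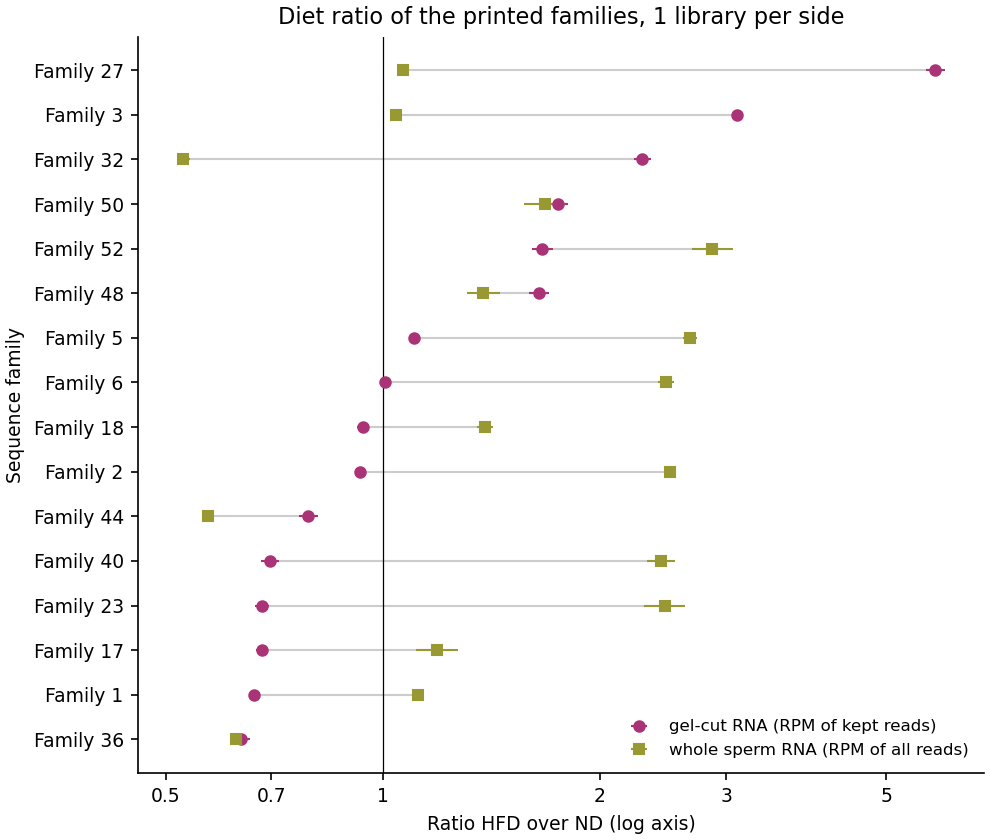
Ratio of HFD over ND on a log axis for the 16 named families, in the gel cut (circles, RPM of kept reads) and in whole sperm (squares, RPM of all reads), with 95% counting intervals and 1 library per side. Gel-cut ratios run from 0.635 for Family 36 to 5.85 for Family 27, and most squares lie away from their circle.

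Family 1, the 5′ piece of tRNA-Val, was the largest family in both diets, at 386247 RPM in ND against 255699 RPM in HFD. The ratio was 0.662 (0.661 to 0.663), or 0.510 on all reads and 0.836 with median ratio scaling. In whole sperm the family was at 10539 RPM in ND against 11793 RPM in HFD, with a ratio of 1.12. With reads of all lengths together, the lower share of this family in the HFD gel cut was thus not present in whole sperm RNA. In the gel cut its 33 nt member was at 335295 RPM in ND against 220822 RPM in HFD, and its 32 nt member at 15387 and 8897 RPM. In whole sperm the 33 nt member was slightly lower in HFD, at 2429 and 2192 RPM, a ratio of 0.902. The 32 nt member was higher there, at 1204 and 1795 RPM, a ratio of 1.49.

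On n-TVcac9, 45 kept sequences matched, with 36.6% of kept reads in ND and 23.9% in HFD. They started at base 1 of the gene in 98.2% of matching ND reads and 98.5% of HFD reads. They ended at base 33, the last base before the anticodon at bases 34-36, in 93.4% of ND and 94.0% of HFD reads. The amount of this fragment differed between the gel-cut libraries while the ends of matching reads were nearly equal. Only reads identical to the gene were counted. Family 1 had 77422 reads of 36 nt in ND and 51486 in HFD, of which 899 and 670 matched bases 1-36. Reads that stop at base 33 cannot tell this gene from another with the same first 33 bases. In whole sperm the ends were wider and did differ: base 32 ended 15.7% of matching reads in ND and 22.3% in HFD, base 33 ended 31.8% and 27.6%, and base 34 ended 33.72% and 25.99%.

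Family 2, which begins like tRNA-Gly, was at 161887 RPM in ND against 150678 RPM in HFD. The ratio of 0.931 was below 1 on kept reads and on all reads (0.717), but above 1 with median ratio scaling (1.18). In whole sperm the family was at 7331 RPM in ND against 18390 RPM in HFD, with a ratio of 2.51. A difference of that size was not present in the gel cut under any of the 3 scalings.

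What differed in Family 2 was the 3′ end. In Family 2 the 30 nt end held 56.1% of ND gel-cut reads (56.0 to 56.2) against 41.3% of HFD reads (41.2 to 41.4). The 32 nt end, 2 bases further along the tRNA, held 27.2% in ND and 38.4% in HFD. Shares within a family do not depend on how libraries are scaled.

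The same ends could be followed in smaller families that match Family 2 except near the 5′ end. Counting from 1 at the 5′ end, Family 5 is Family 2 with G6T and Family 52 is Family 2 with T5G. Families 6, 40 and 23 are Family 2 lacking 1, 2 and 3 bases near positions 5 to 7. Whether these are separate tRNA genes, or sites where a modified base was misread or skipped in library preparation, was not tested. The sequences below show 4 of these changes beside Family 2, with the 15 family bases in capitals.

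Family 5, 32 nt: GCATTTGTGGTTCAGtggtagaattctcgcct
Family 6, 31 nt: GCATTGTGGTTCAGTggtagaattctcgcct
Family 23, 29 nt: GCATTGGTTCAGTGGtagaattctcgcct
Family 40, 30 nt: GCATGTGGTTCAGTGgtagaattctcgcct

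The shorter end, at the base where the 30 nt read of the main family stops, had a smaller share in HFD throughout the Family 2 group. Its 6 families may be readings of the same RNA in the same libraries, so they are not independent of each other. It went from 38.1% to 25.4% in Family 5, from 48.3% to 37.8% in Family 6, from 8.84% to 6.11% in Family 23 and from 27.3% to 22.6% in Family 40. Family 52 had 16.9% in ND (16.0 to 17.9) and 16.1% in HFD (15.3 to 16.9), so its intervals overlapped.

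Whole sperm RNA, a separate pair of libraries, had the same order of shares at this end in each of these 6 families. In Family 2 it was 5.00% in ND (4.84 to 5.17) and 2.71% in HFD (2.64 to 2.79). It was a minor end there. In whole sperm 34 nt held 45.5% of Family 2 reads in ND and 47.0% in HFD, 35 nt 21.2% and 24.8%, and 26 nt 19.2% and 19.5%. In the gel cut 34 nt held 1.07% and 1.35%. The 32 nt end of Family 2 was not alike in both kinds of library. It was larger in HFD in the gel cut, but in whole sperm it was 0.761% in ND and 0.636% in HFD. The shorter and longer ends compared here were chosen after their values were seen.

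**Figure D4:**
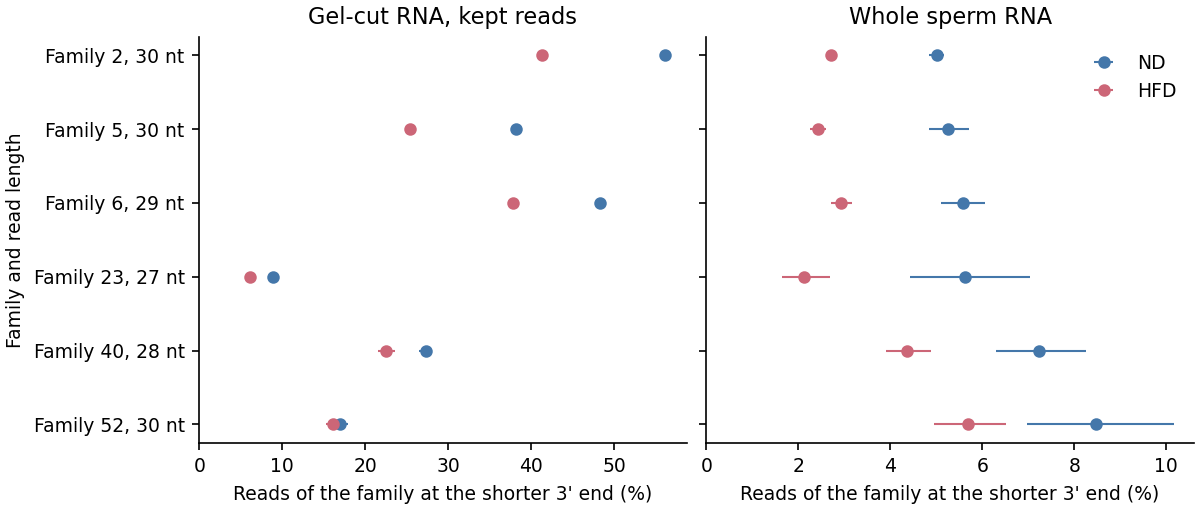
Share of each family's reads (%) that stop at the shorter 3′ end, in ND (blue) and HFD (red), for Family 2 and its 5 variants, in the gel cut (left) and in whole sperm (right, another axis range), with 95% counting intervals. HFD lies left of ND in each of the 6 families in both panels, with overlapping intervals only for Family 52 in the gel cut.

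The shares of these 5′ variants went different ways. Family 5 was 10.5% of Families 2 and 5 together in ND and 12.2% in HFD, and Family 6 was 8.53% of its pair with Family 2 in ND and 9.18% in HFD. Family 52 went from 0.518% of its pair in ND to 0.922% in HFD, whereas Family 23 went from 2.12% to 1.55% and Family 40 from 1.08% to 0.809%. The 5 variants together were 19.9% of the Family 2 group in ND and 21.4% in HFD, against 26.2% and 26.7% in whole sperm. For Family 1, Family 17 (G7A) was 1.07% of the pair in ND and 1.10% in HFD.

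Family 3, which begins like 28S rRNA, was the one abundant family that was 2 times or more higher in HFD. It was at 71091 RPM in ND against 220407 RPM in HFD, with a ratio of 3.10 (3.09 to 3.11), which was 2.39 on all reads. In whole sperm, with reads of all lengths together, it was at 6329 RPM in ND against 6601 RPM in HFD, with a ratio of 1.04. In the gel cut its 36 nt member was at 17412 RPM in ND against 113494 RPM in HFD, with a ratio of 6.52 (6.48 to 6.56). Its 41 nt member was at 18173 and 31954 RPM there, a ratio of 1.76. In whole sperm the 36 nt member was also higher in HFD, at 454 and 1326 RPM, a ratio of 2.92. The 34 and 35 nt members had whole sperm ratios of 1.77 and 2.01. The 41 nt member was lower in HFD there, at 20.4 and 10.2 RPM.

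The ends within Family 3 moved in favour of 36 nt. This end held 25.2% of the family in ND and 52.2% in HFD, whereas the 41 nt end held 25.7% and 14.6%. In whole sperm the 36 nt end was also larger in HFD, at 7.41% in ND and 20.8% in HFD. There the family was shorter in ND, with 23.4% of reads at 19 nt against 2.29% in HFD. The mean length of the family in whole sperm was 26.7 nt in ND and 32.3 nt in HFD, and in the gel cut 37.2 and 36.4 nt.

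Families 27 and 32, which begin like 5.8S rRNA, were the other named families that were 2 times or more higher in HFD on kept reads. Family 27 was at 678 RPM in ND against 3965 RPM in HFD, with a ratio of 5.85 (5.67 to 6.04). Family 32 was at 1177 and 2697 RPM, a ratio of 2.29 (2.23 to 2.35), which fell under 2 on all reads (1.77) and without Family 1 in the totals (1.89). The higher level was in the short reads of both families. Up to 28 nt, Family 27 was at 30.6 RPM in ND against 3256 RPM in HFD, and Family 32 at 46.4 and 1609 RPM. From 29 nt on, Family 27 was at 647 and 709 RPM, and Family 32 at 1131 and 1088 RPM.

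Single ends carried most of this. The 26 nt member of Family 27 was at 11.3 RPM in ND (80 reads) and 2214 RPM in HFD (12340 reads), a ratio of 196 (157 to 247). The 27 nt member of Family 32, which stops at the same base, was at 20.7 RPM (146 reads) and 1346 RPM (7501 reads), a ratio of 65.2 (55.3 to 77.3). In whole sperm the same members were not higher in HFD: the 26 nt member was at 22.0 RPM in ND against 17.3 RPM in HFD, and the 27 nt member at 48.1 and 33.2 RPM. Short reads of Family 27 as a whole were higher there in HFD, at 1323 RPM up to 28 nt in ND and 2413 RPM in HFD. This came with its 25 nt end, at 28.5% of the family in ND and 58.9% in HFD, beside 1.02% and 10.3% in the gel cut. Short reads of Family 32 in whole sperm were at 483 and 485 RPM. Reads up to 28 nt are shorter than the stated gel cut, and the HFD library held a larger share of reads of 18-27 nt in general, 8.84% against 4.92%. The part of the cut's lower edge in these ratios was not tested.

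**Figure D5:**
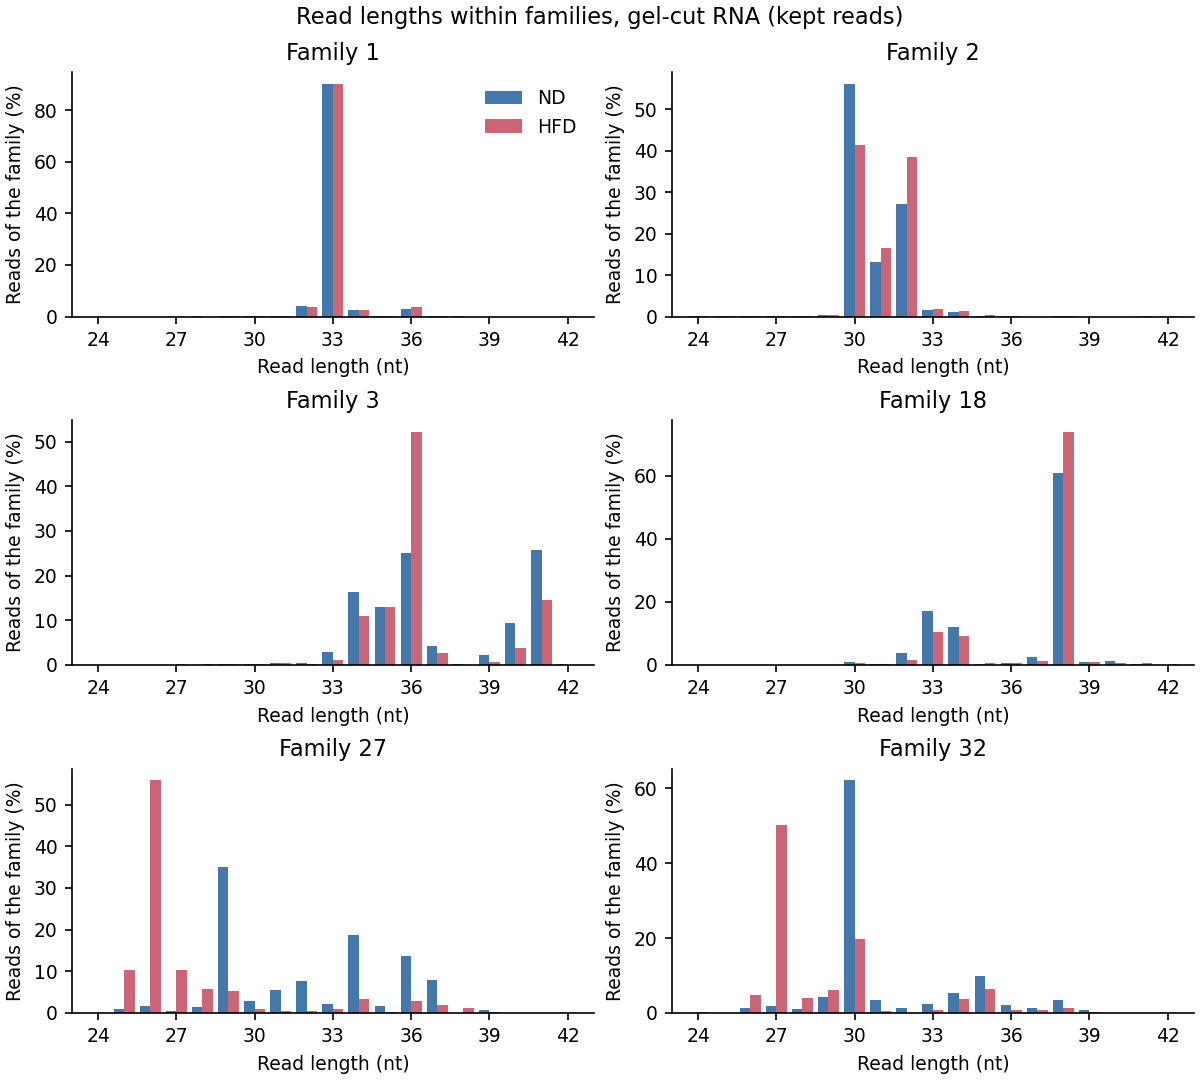
Share of each family's kept gel-cut reads (%) at each read length from 24 to 42 nt in ND (blue) and HFD (red), for Families 1, 2, 3, 18, 27 and 32, 1 library per bar. Family 1 stays at 33 nt with 90.2% and 90.1%, Family 3 goes to 36 nt in HFD, and Family 27 goes from 29 nt in ND (34.98%) to 26 nt in HFD (55.8%).

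Among the named families lower in HFD, Family 36 had the smallest ratio on kept reads: 2111 and 1341 RPM in the gel cut, a ratio of 0.635, beside a whole sperm ratio of 0.625. Family 44 was also lower in HFD in both, with ratios of 0.788 and 0.571. On all reads, the scale of the whole sperm ratios, the gel-cut ratios were 0.490 for Family 36 and 0.608 for Family 44. Family 18 had a similar level, at 3566 and 3342 RPM, but its 38 nt end held 60.7% in ND and 73.8% in HFD.

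Over the 16 named families, the mean read length was larger in HFD for 9 in the gel cut and for 8 in whole sperm. Both kinds of library had a larger mean in HFD for 6 families, both a smaller one for 5, and 5 families went opposite ways, Families 1 and 3 among them. Family 27 had the largest drop in the gel cut, from 32.02 nt in ND to 27.4 nt in HFD, with 29.8 and 27.6 nt in whole sperm.

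Of the single sequences past 500 RPM, 149 in number, 33 were 2 times or more higher in HFD and 19 lower. Those at 10 RPM or more in each whole sperm library numbered 74, of which 11 were higher and 7 lower. Among the 5 largest ratios only 1 sequence had such whole sperm support, and likewise 1 of the 5 smallest, so the members named here are among the most extreme of the supported ones and not of all. Beside those given above, a 30 nt member of Family 3 was at 71.2 RPM in ND against 567 RPM in HFD, and a 23 nt member of Family 30 at 223 and 1027 RPM. Lower in HFD were a 36 nt member of Family 53 at 716 and 153 RPM and a 30 nt member of Family 54 at 1347 and 481 RPM. A 30 nt member of Family 69, which starts at base 4 of n-TVcac9 and ends at base 33, was at 882 and 390 RPM.

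A histidine tRNA gene was the other covered gene with many reads; it was looked at after its values were seen, and the other 4 had at most 37 reads in a gel-cut library. Mature tRNA-His is known for an extra G at its 5′ end that is added by an enzyme and is not in the gene.

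n-THgtg7 (tRNA-His, GRCm38.p6, chr3:96452495-96452566, plus strand, anticodon in capitals): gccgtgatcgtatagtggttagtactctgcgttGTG

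Reads from base 1 of this gene with an added G were at 5051 RPM in ND against 4743 RPM in HFD, with a ratio of 0.939. Reads without an added base were at 1879 and 1091 RPM, a ratio of 0.581 (0.563 to 0.598). The added G was thus on 68.0% of reads at this 5′ end in ND and 74.1% in HFD, and an added T on 5.25% and 7.68%. In whole sperm the added G was on 52.3% and 58.1%. For tRNA-Val the same search found 1 read with an added base in ND and 0 in HFD, beside 2537127 and 1309163 reads without one. Of reads that match the histidine gene itself, 68.1% ended at base 30 in ND and 64.0% in HFD. Base 31 ended 13.5% and 10.9%, and base 33 ended 11.8% and 20.4%. In whole sperm few reads matched this gene, and base 33 ended 1 of 118 in ND (0.847%) and no read in HFD.

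MicroRNAs, at about 22 nt, are shorter than the stated cut. Reads of 20-26 nt that match a mature microRNA were at 481 RPM in ND against 1057 RPM in HFD, with a ratio of 2.20 (2.10 to 2.29), beside 187500 and 179280 RPM in whole sperm. The mature sequences of the 3 most abundant are from RefSeq (GRCm38.p6), with the seed, bases 2 to 8, in capitals. The first pair, miR-10b-5p and miR-10a-5p, share their seed.

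miR-10b-5p (chr2:74726074-74726096, plus strand): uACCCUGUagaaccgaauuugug
miR-10a-5p (chr11:96317186-96317208, plus strand): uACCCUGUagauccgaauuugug
miR-192-5p (chr19:6264857-6264877, plus strand): cUGACCUAugaauugacagcc

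In ND and HFD, miR-10b-5p was at 280 and 346 RPM and miR-10a-5p at 83.8 and 169 RPM. The ratio was much larger for miR-192-5p, at 14.01 RPM in ND (99 reads) and 234 RPM in HFD (1302 reads), while in whole sperm it was at 80.6 and 95.9 RPM. Of the others, miR-182-5p was at 26.2 and 46.5 RPM and miR-148a-3p at 11.9 and 36.1 RPM.

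Lists of microRNAs that mark the male germ line or other cells and tissues were read in the same way. Their part in the results was not tested. The list for the epididymis and its secretions, with 16 of 18 names in the reference table, had 2744 reads (388 RPM) in ND and 3375 reads (606 RPM) in HFD. The blood list, with 4 of 5 names in the table, had 1 read in ND and 59 in HFD. The male germ line list, with all 16 names in the table, had 0 reads in ND and 46 in HFD, beside 895 and 1179 RPM in whole sperm. The lists for muscle (2 of 3 names in the table) and endothelium (1 of 1) had no gel-cut read. At 0 reads, up to 3 reads are allowed, or 0.424 RPM in ND against 0.538 RPM in HFD.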

How the data were processed

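The authors deposited, for each sperm library, counts of reads per distinct sequence with its length, 18 to 44 nt. Aligner, trimming settings and filters are not given in the sources used here. Raw reads were not used, and the deposited FPKM tables of embryos and islets were not used here. Libraries were grouped by their titles. Sequences with at least 1 read in either whole sperm library were kept and scaled to RPM of kept reads. Sequences were counted as different at 100 RPM or more in either gel-cut library and a ratio of 2 or more, with a side at 0 set to 3 reads; families (first 15 bases) needed 1000 RPM. Shares carry Clopper-Pearson and ratios exact conditional binomial intervals at 95%. With 1 library per side nothing was tested. Counting was checked on simulated data.

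The names follow a rule: the 12 most abundant families, the 10 most abundant sequences, and up to 5 of each direction past 1000 RPM (families) or 500 RPM (sequences), where whole sperm held at least 100 RPM (families) or 10 RPM (sequences) in both libraries. Some families that meet the rule are not reported here. Other supported families, histidine tRNA and the 3′ ends were added after their values were seen. Members and lists were chosen with earlier results of these data known. MicroRNA reads had to match the first 20 bases of a RefSeq mature sequence. Python 3.11.15, pandas 2.3.3, numpy 2.4.6 and scipy 1.17.1 were used.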

Additional observations from a re-analysis of the deposited data

Results flagged for a closer look

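Family 32 as a whole went opposite ways in the 2 kinds of library. HFD over ND was 2.29 in the gel cut (1.77 on all reads) and 0.528 in whole sperm, at 2645 RPM in ND and 1398 RPM in HFD. The 2 ratios came from reads of different length. Up to 28 nt it was at 46.4 and 1609 RPM in the gel cut, and 483 and 485 RPM in whole sperm. From 29 nt on it was at 1131 and 1088 RPM in the gel cut, and 2162 and 913 RPM in whole sperm. The difference between the kinds of library was not tested, since each side is 1 library.

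Reads outside the kept set were 47.4% of the HFD gel-cut library and 31.8% of the ND library. They are in sequences without a read in whole sperm RNA, were not used in the comparisons above, and had mean lengths of 29.6 nt in HFD and 29.7 nt in ND. Of them, 42.2% in HFD and 49.0% in ND were 30-40 nt long, against 83.3% and 88.7% of kept reads.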

How the results depend on the processing

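No paired analysis was possible because each diet has 1 gel-cut library and nothing was tested. As reported, 271 of 563 sequences (48.1%) differed. With only sequences at 10 RPM or more in each whole sperm library kept, and RPM scaled to their reads, 62 of 206 (30.1%) differed. The count was 689 of 930 (74.1%) with no whole sperm filter and 467 of 782 (59.7%) without Family 1. Floors of 50 and 500 RPM gave 529 of 1040 (50.9%) and 52 of 149 (34.9%). For 30-40 nt only it was 150 of 377 (39.8%), and with no floor 19193 of 24402 (78.7%). The median log2 ratio of -0.31 changed sign with no filter (0.30) and with median ratio scaling (0.030). It was -0.37 with reads in both whole sperm libraries, -0.17 with 10 RPM in both, -0.76 on all reads, -0.70 without Family 1, -0.40 and -0.0099 at floors of 50 and 500 RPM, and -0.54 for 30-40 nt. Differing families were 27 of 63 as reported, 8 of 24 with 10 RPM in both and 81 of 112 with no filter. They were 47 of 94 without Family 1 and 52 of 116 at a floor of 500 RPM. For these 5 alternatives in order (reads in both, 10 RPM in both, no filter, without Family 1, each sequence counted once), the 28-34 nt difference was -15.8, -18.4, -16.1, -15.4 and -8.72 points. The 35-44 nt difference was 12.3, 17.1, 6.99, 11.5 and 0.347 points, so it nearly vanished when sequences were not weighted by reads. The kept share differed by -15.0, -11.9 and -10.9 points with reads in both, 10 RPM in both and 30-40 nt only.

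Of 32 named families and sequences, 3 crossed a ratio of 1 on all reads and 2 with median ratio scaling, as did 3 of 29 without Family 1. Depth limits little for abundant members: 3 reads are 0.424 RPM in ND and 0.538 RPM in HFD.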
